A study of Mus musculus with 11 samples.

Results

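The genes described here are 8 genes known for their expression in the choroid plexus, and all 8 listed symbols (Ttr, Enpp2, Htr2c, Otx2, Kl, Folr1, Slc4a5 and Igf2) were found among the 25938 gene symbols of the matrix. They were chosen by name, with earlier results of these data known. The data are unique molecular identifier (UMI) counts from 110304 single brain nuclei in 11 libraries, each nucleus carrying 1 of 10 class names given by the authors. In all groups the labels give a homozygous knock-in of the human transferrin receptor gene (TfR) and, as tissue, the posterior brain, while the metadata deposited with the matrix give cortex and C57BL/6J. Dosing was intravenous, once a week for 4 doses, with tissue taken 72 h later. ATV:BACE1 at 57 mg/kg, which binds TfR and has no antisense oligonucleotide (ASO) attached, was the control (n = 3). OTV:Malat1 at 60 mg/kg carries an ASO against the nuclear RNA Malat1 on a TfR-binding molecule (n = 3). The conjugate nonTV:Malat1 at 60 mg/kg carries it on one without TfR binding (n = 3), and Malat1 ASO at 2.5 mg/kg is the free oligonucleotide (n = 2). Replicate numbers 1, 4 and 5 mark females of 2.33 months, males of 2.57 months and males of 2.33 months, and also the deposited batches 1, 3 and 4, so these cannot be told apart. The Malat1 ASO group has replicates 1 and 5 only. The labels do not state that each library is a separate animal, so p-values measure the spread between these libraries.

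The choroid plexus is a tuft of capillaries and connective tissue covered by an epithelium that hangs in the brain ventricles and secretes cerebrospinal fluid. Its epithelium makes transthyretin (Ttr), the carrier of thyroxine and of the retinol-binding protein complex, in such amounts that Ttr is among the most abundant messages of dissected brain ventricles. Neurons, oligodendrocytes and other parenchymal cells are not known as main sources of Ttr, so its UMIs in their droplets can serve as a gauge of RNA that floats free after homogenization and is captured with any nucleus. The other genes have different roles. Enpp2 encodes autotaxin, which makes lysophosphatidic acid and is also a gene of myelinating oligodendrocytes. Htr2c is a serotonin receptor of choroid plexus epithelium and of neurons. Otx2 is a homeodomain transcription factor required for choroid plexus development. Kl encodes Klotho, a co-receptor of fibroblast growth factor 23, Folr1 a folate receptor that carries folate into cerebrospinal fluid, and Slc4a5 a sodium bicarbonate cotransporter. Igf2, an imprinted growth factor, is made by choroid plexus and by meninges.

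On the GENCODE M21 annotation of GRCm38, the genes lie on 7 chromosomes. Enpp2 is at chr15:54838901-54952892, Htr2c at chrX:146962513-147197277 and Otx2 at chr14:48657677-48673819. Kl is at chr5:150952607-150993817, Slc4a5 at chr6:83219828-83304945, Folr1 at chr7:101858331-101870788 and Igf2 at chr7:142650766-142666816. The start of Otx2 overlaps Otx2os1, a non-coding gene of the other strand, and Igf2 overlaps Igf2os. How counting treated strand is not given in the sources used here, so reads of these overlapping pairs cannot be told apart. Igf2 also overlaps Gm49394, a protein-coding gene of the same strand at chr7:142650769-142669942, which is not among the gene symbols of the matrix. The part of this overlap in the Igf2 counts was not tested.

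Because Otx2 and several of the other genes were high in the same class of nuclei, the windows around their annotated starts were searched for the letters TAATCC, a core motif bound by Otx-type homeodomain factors, on both strands. RefSeq windows of 300 bases on GRCm38.p6 (250 bases before and 50 after a start) were at hand for 5 of the 8 genes (Kl, Slc4a5, Igf2, Otx2 and Htr2c), 11 windows in all. The motif was present in 2 of the 11 windows, against 7.06% of all 32851 windows in the table. The windows with a match are 1 of Otx2, at chr14:48665060-48665359 on the minus strand, and 1 of Igf2, at chr7:142658755-142659054 on the minus strand. They are shown because they are the ones with the motif, in capitals, which stands in both as its reverse complement GGATTA. A match is a run of letters and not a shown binding site.
Otx2: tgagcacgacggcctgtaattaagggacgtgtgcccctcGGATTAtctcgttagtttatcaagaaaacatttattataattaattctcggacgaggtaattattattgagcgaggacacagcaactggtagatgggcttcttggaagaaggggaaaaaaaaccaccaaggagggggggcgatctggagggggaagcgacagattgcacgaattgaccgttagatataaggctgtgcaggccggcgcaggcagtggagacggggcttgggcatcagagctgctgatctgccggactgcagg
Igf2: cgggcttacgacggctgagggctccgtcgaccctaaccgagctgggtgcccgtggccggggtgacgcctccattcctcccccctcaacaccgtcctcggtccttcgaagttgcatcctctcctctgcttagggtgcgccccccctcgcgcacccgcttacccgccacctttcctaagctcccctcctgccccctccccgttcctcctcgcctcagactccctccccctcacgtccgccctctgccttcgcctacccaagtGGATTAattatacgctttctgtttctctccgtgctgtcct
In the Otx2 window the match begins 211 bases before the annotated start, and in the Igf2 window it begins 10 bases after it. Igf2, as described next, was not high in the class in which Otx2 was high.

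The libraries held 7546 to 13840 nuclei and 33235994 to 43972886 UMIs, with medians of 2205 to 3666 UMIs per nucleus. Of 108788 different cell barcodes, 1495 (1.37%) occurred in more than 1 library. Malat1, the targeted gene, stood at 40041 to 50348 CPM (UMIs of a gene per 1000000 UMIs) over all nuclei in the OTV:Malat1 libraries, under the 74472 to 83899 CPM of the other 8. In Glia it stood at 50000.2 to 61238 CPM in OTV:Malat1 and at 60536 to 88979 CPM in the other libraries, and these ranges overlap.

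The class that the authors named Glia held 1525 nuclei, 107 to 191 per library or 0.780% to 1.87% of each library's nuclei. It carried markers of 2 cell types of the ventricle wall. All 6 choroid plexus epithelium markers and all 8 ependymal markers of the marker lists were present. The first list includes Aqp1, Kcnj13 and Prlr, the second Foxj1 and Dnah12. Their summed levels were 576 to 1604 CPM and 1540 to 3407 CPM over the 11 libraries. In the other classes the choroid plexus markers summed to at most 137 CPM in any library. Astrocyte markers (5 genes, 1054 to 2088 CPM), neuron markers (6 genes, 676 to 1497 CPM) and oligodendrocyte markers (5 genes, 713 to 1485 CPM) were also present in Glia, and 19.5% of Glia nuclei were called doublets by the authors against 10.4% of all nuclei. The part of such nuclei in the levels below was not tested, and values without called doublets are among the alternatives.

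Of the 8 genes, 7 were higher in Glia than in every other class, and Igf2 was not. In the statements that follow, CPM are taken of the summed UMIs of a class in a library, and they are not corrected for gene length, so levels are compared between classes and not between genes. Ttr averaged 3515 ± 1007 CPM in Glia (SD, n = 11 libraries), which is 12.1 ± 4.43 UMIs per nucleus. By that annotation the gene lies on chromosome 18 (chr18:20665280-20674321, plus strand). It stood at 5079, 3050 and 3556 CPM in ATV:BACE1 replicates 1, 4 and 5, at 4765, 4805 and 3009 in nonTV:Malat1, at 2568, 2959 and 2448 in OTV:Malat1, and at 4069 and 2354 in Malat1 ASO replicates 1 and 5. The 3 OTV:Malat1 libraries were below the 6 libraries of ATV:BACE1 and nonTV:Malat1, and the Malat1 ASO libraries lay on both sides of them. The share of all genes whose libraries separate in this way was not counted, so this order is a description only.

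Enpp2 (autotaxin) averaged 2729 ± 696 CPM in Glia, between 1844 and 4071. Its next class was oligodendrocytes at 1205 ± 199 CPM. Glia exceeded oligodendrocytes in 11 of 11 libraries, by 1.16 ± 0.30 on the log2 scale (SD of the within-library differences), and per nucleus the 2 classes stood at 9.31 and 1.39 UMIs of Enpp2. Oligodendrocyte nuclei are known to express Enpp2, and 68.5% of them had a UMI of it, against 11.8% of vascular endothelium nuclei, the class with the lowest share. The median depths of the 2 classes were 947 and 960.5 UMIs, so this difference in share was between classes of like depth.

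Htr2c (serotonin receptor 2C) averaged 5393 ± 896 CPM in Glia, between 3823 and 6680, and 18.2 ± 3.84 UMIs per nucleus. Neurons came next at 221 ± 12.4 CPM and 1.07 ± 0.21 UMIs per nucleus. The neuronal level varied little between libraries, from 201 to 237 CPM. Because neurons made up most nuclei, they supplied 72.8% of all Htr2c UMIs and Glia 26.1%, although Glia exceeded neurons in 11 of 11 libraries by 4.60 ± 0.24 on the log2 CPM scale.

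Otx2, Kl, Folr1 and Slc4a5 were sparse genes whose Glia level was far over that of most classes. Otx2 averaged 211 ± 34.1 CPM in Glia (155 to 270). The next class was astrocytes at 15.3 ± 3.85 CPM, where 2.43% of nuclei had an Otx2 UMI. Kl averaged 220 ± 54.3 CPM in Glia (133 to 313), and its next class was leptomeningeal cells at 64.7 ± 18.8 CPM, lower in 11 of 11 libraries. Folr1 averaged 126 ± 22.7 CPM in Glia (70.6 to 152). It was at or under 11.02 CPM on average in the 8 other classes with more than 1 library, at most 1.60% of the nuclei of any other class having a UMI of it.

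Slc4a5, the bicarbonate cotransporter, was the gene most limited to Glia by share of its UMIs. It averaged 189 ± 47.2 CPM there (97.8 to 266), and Glia supplied 74.2% of its 1343 UMIs from 1.38% of the nuclei. Oligodendrocytes came next at 3.51 ± 1.80 CPM and did not differ from neurons beyond the spread in UMIs per nucleus (0.00394 and 0.00360). No Slc4a5 UMI was found in 1175 microglia, 930 pericytes, 330 vascular smooth muscle nuclei and 125 perivascular macrophages. These zeros allow shares of up to 0.255%, 0.323%, 0.909% and 2.40% of nuclei with a UMI, counting error only.

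Igf2 went against the list. It stood at 8.30 ± 5.17 CPM in Glia, 41 UMIs in all, and 2.62% of Glia nuclei had a UMI of it. Leptomeningeal cells held more, at 57.3 ± 20.5 CPM (35.6 to 89.3), with a UMI in 7.04% of nuclei. Vascular smooth muscle (24.1 ± 18.8 CPM, n = 8) and pericytes (17.8 ± 10.6 CPM) followed, and pericytes exceeded Glia in 10 of 11 libraries on the CPM scale and in 6 of 11 per nucleus. These classes carry the authors' names, and their markers were mixed. The class named pericytes held 8400 CPM of 4 endothelium markers and 3431 CPM of 3 pericyte markers, and the class named vascular smooth muscle 3396 CPM of pericyte markers and 844 CPM of 3 smooth muscle markers.

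**Figure D1:**
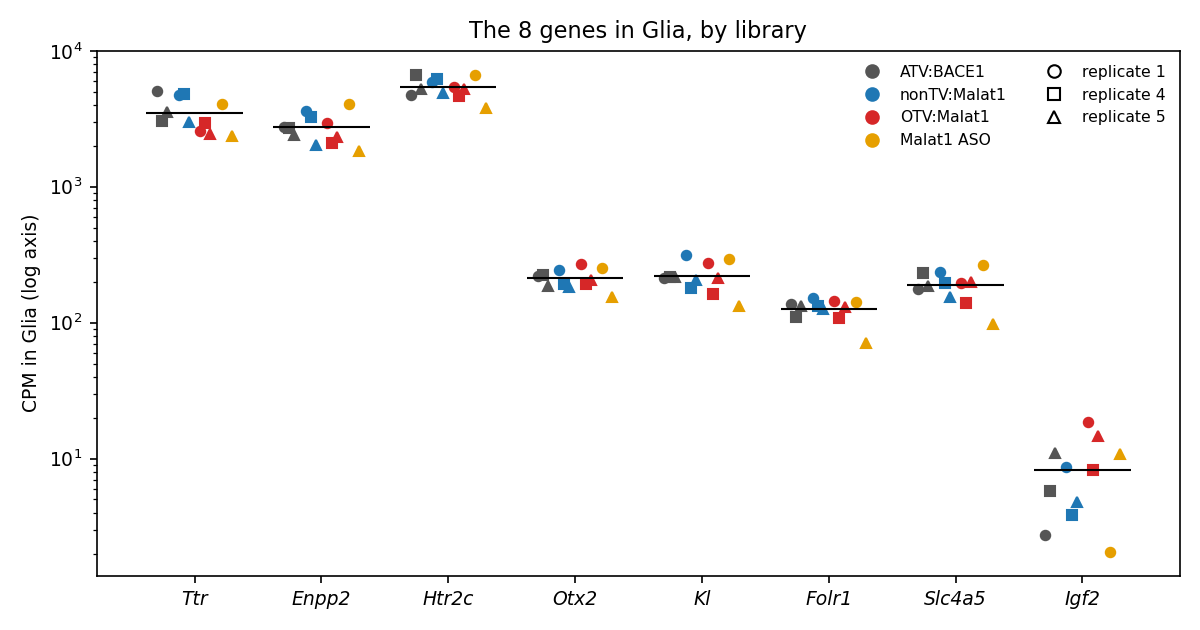
CPM of the 8 genes in Glia on a log axis, 1 point per library, with colour for the dosing group, shape for the replicate number and a bar at the mean of 11 libraries. Malat1 ASO replicate 5 is the lowest library for 7 of the 8 genes (Ttr at 2354 CPM, Folr1 at 70.6, Slc4a5 at 97.8), and Igf2 lies between 2.06 and 18.6 CPM.

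In that library 36.8% of Glia nuclei had more choroid plexus than ependymal marker UMIs, the second lowest share of the 11 (34.96% to 62.7%), and the part of that share in the low values was not tested.

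The share of Glia nuclei with a UMI depends on depth, and Glia nuclei had a median of 2661 UMIs. Ttr was found in 90.9 ± 5.61% of Glia nuclei, Enpp2 in 66.3 ± 8.26%, Htr2c in 59.6 ± 9.004%, Otx2 in 42.5 ± 5.90%, Kl in 37.0 ± 7.79%, Slc4a5 in 35.9 ± 8.08%, Folr1 in 31.1 ± 5.75% and Igf2 in 2.67 ± 1.51% (n = 11). Thinned to 1000 UMIs per nucleus, with 4.44% of Glia nuclei left out as shallower, these shares were 75.4%, 59.0%, 57.8%, 20.6%, 19.8%, 18.2%, 13.5% and 0.710% in the same order. The genes with many UMIs per nucleus kept most of their share after thinning, and the sparse ones lost more. In neurons thinned alike, the shares were 33.7% for Ttr, 15.5% for Htr2c, 8.71% for Enpp2 and at most 0.243% for the other 5 genes.

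Glia nuclei fell into 2 kinds by the marker lists, a split made after the data had been seen. There were 758 nuclei with more choroid plexus than ependymal marker UMIs, 712 with more ependymal marker UMIs and 55 with equal numbers, and 118 nuclei differed by 1 UMI. None of the 8 genes was among the markers. In the first kind Ttr averaged 5954 ± 1502 CPM and 20.1 UMIs per nucleus. In the second kind it averaged 981 ± 372 CPM and 3.46 UMIs per nucleus. Both kinds had similar depth, with medians of 2750 and 2591 UMIs.

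The genes differed in their level in the ependymal-marker nuclei. Htr2c averaged 10016 ± 1352 CPM against 677 ± 557, Kl 407 ± 74.5 against 28.6 ± 22.2, and Slc4a5 346 ± 59.4 against 21.2 ± 17.3. Otx2, with 346 ± 45.2 against 71.9 ± 17.0 CPM, and Folr1, with 190 ± 33.8 against 59.1 ± 15.2 CPM, stood closer in the 2 kinds. Otx2 had a UMI in 20.8% and Folr1 in 17.1% of ependymal-marker nuclei, against 6.13% for Kl and 5.06% for Slc4a5. Htr2c had a UMI in 15.4% of them, and its level there ran from 22.1 to 1993 CPM over libraries. Of the 7 genes other than Ttr, nuclei of the first kind had a UMI of 4.44 on average and of at least 3 in 97.1% of nuclei. Nuclei of the second kind had 0.933 and 8.57%, and neurons, at a median of 3926 UMIs, 0.653 and 0.548%. Several of the 7 genes thus occurred together in most nuclei of the first kind.

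Glia supplied only a small part of all Ttr UMIs. Of them 9.55% came from Glia nuclei, 62.5% from neurons, 11.7% from oligodendrocytes and 11.2% from astrocytes, close to the 69.1%, 12.98% and 11.5% that these 3 classes made up of all nuclei. By library, 5.08% to 14.2% of Ttr UMIs came from Glia. For Otx2, Kl and Folr1 the part from Glia was 54.6%, 51.3% and 40.9%, and for Enpp2, Htr2c and Igf2 it was 19.4%, 26.1% and 5.06%.

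**Figure D2:**
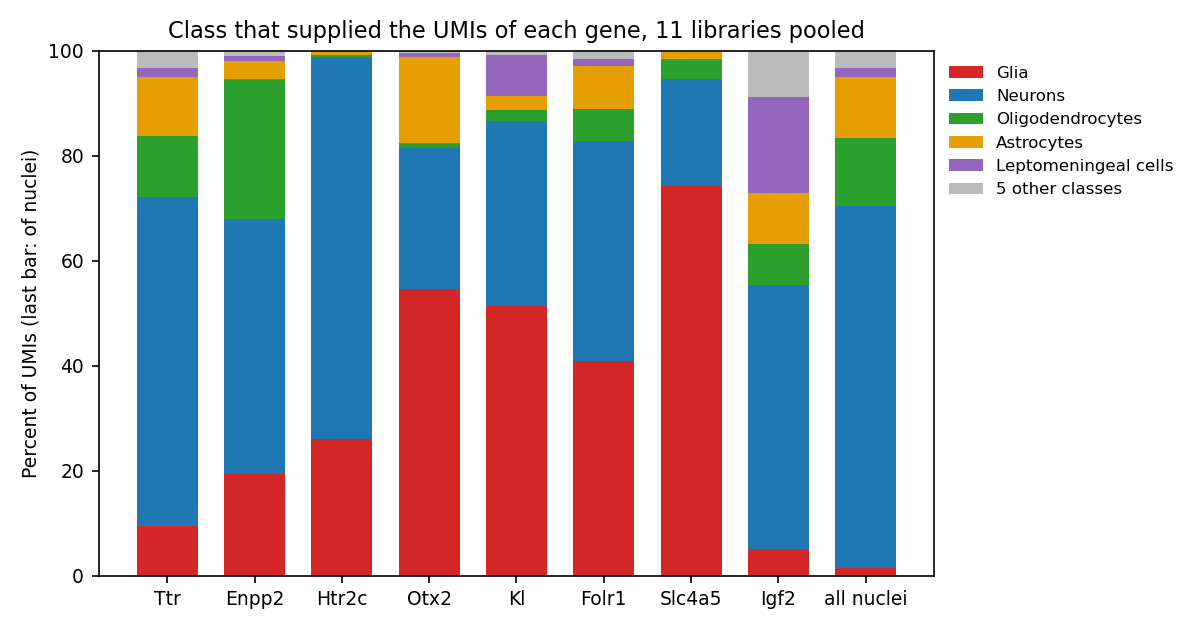
Stacked bars of the percent of each gene's UMIs that came from nuclei of each class, over 11 libraries pooled, beside the percent of nuclei in each class. Glia, 1.38% of nuclei, supplied 74.2% of Slc4a5 UMIs and 9.55% of Ttr UMIs, and outside Glia the Ttr bar is divided much like the bar of nuclei.

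In every class other than Glia, Ttr was present in most nuclei and at nearly the same number of UMIs per nucleus. Pooled over libraries it ranged from 1.66 UMIs per nucleus in oligodendrocytes to 1.93 in leptomeningeal cells, with neurons at 1.67, microglia at 1.69, vascular endothelium at 1.78, astrocytes at 1.79 and pericytes at 1.81. The share of nuclei with a Ttr UMI ran from 76.0% in neurons to 83.2% in perivascular macrophages. The distributions were also alike. The median was 1 or 2 UMIs, the 90th percentile was 4 UMIs in each of these 9 classes, and 10 or more UMIs were found in at most 0.376% of nuclei, against 41.5% in Glia.

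The classes differed in depth, from a median of 821 UMIs in vascular smooth muscle to 3926 in neurons, and on the CPM scale the same Ttr counts gave an order. Vascular smooth muscle stood at 1909 ± 525 CPM (n = 8), microglia at 1570 ± 473, oligodendrocytes at 1444 ± 404, vascular endothelium at 1409 ± 389, leptomeningeal cells at 1251 ± 303, astrocytes at 1066 ± 274, pericytes at 744 ± 248 and neurons at 355 ± 98.2 CPM (n = 11 each). In that order the first 5 classes did not differ from their neighbours beyond the SD of the within-library log2 difference. From leptomeningeal cells to astrocytes, pericytes and neurons each step was beyond that SD, with the higher class above the next in 11 of 11 libraries. In UMIs per nucleus no pair of neighbours below Glia differed beyond that spread. Perivascular macrophages reached 20 nuclei in 1 library only, OTV:Malat1 replicate 1, with 1472 CPM and 1.48 UMIs per nucleus.

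Within a library, the highest of the classes other than Glia had 1.17 to 1.43 times the Ttr UMIs per nucleus of the lowest (median over libraries 1.26), while in CPM the ratio was 3.77 to 7.05 (median 4.96). For Enpp2, which has a known source among these classes, the ratio in UMIs per nucleus was 6.07 to 32.6 (median 11.5).

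Between libraries the Ttr level in the other classes rose and fell together. In neurons it was 2.54, 1.07 and 1.63 UMIs per nucleus in ATV:BACE1 replicates 1, 4 and 5, 2.52, 1.84 and 2.02 in nonTV:Malat1, 1.43, 1.64 and 0.911 in OTV:Malat1, and 1.71 and 1.56 in Malat1 ASO replicates 1 and 5. In oligodendrocytes the same libraries gave 2.61, 0.973 and 1.56, then 2.43, 1.66 and 1.89, then 1.38, 1.62 and 0.928, and 1.73 and 1.44. ATV:BACE1 replicate 1 and nonTV:Malat1 replicate 1 were the highest libraries in both classes, and OTV:Malat1 replicate 5 was the lowest. Astrocytes ran from 0.943 to 2.67, leptomeningeal cells from 0.974 to 2.87, microglia from 0.986 to 2.37, pericytes from 0.828 to 2.72 and vascular endothelium from 1.05 to 2.47, each lowest in OTV:Malat1 replicate 5. On the CPM scale the lowest library was ATV:BACE1 replicate 4 in neurons (238), oligodendrocytes (960) and astrocytes (692). It was OTV:Malat1 replicate 1 in leptomeningeal cells (904), pericytes (425) and vascular endothelium (1011). In microglia it was OTV:Malat1 replicate 5 (932).

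**Figure D3:**
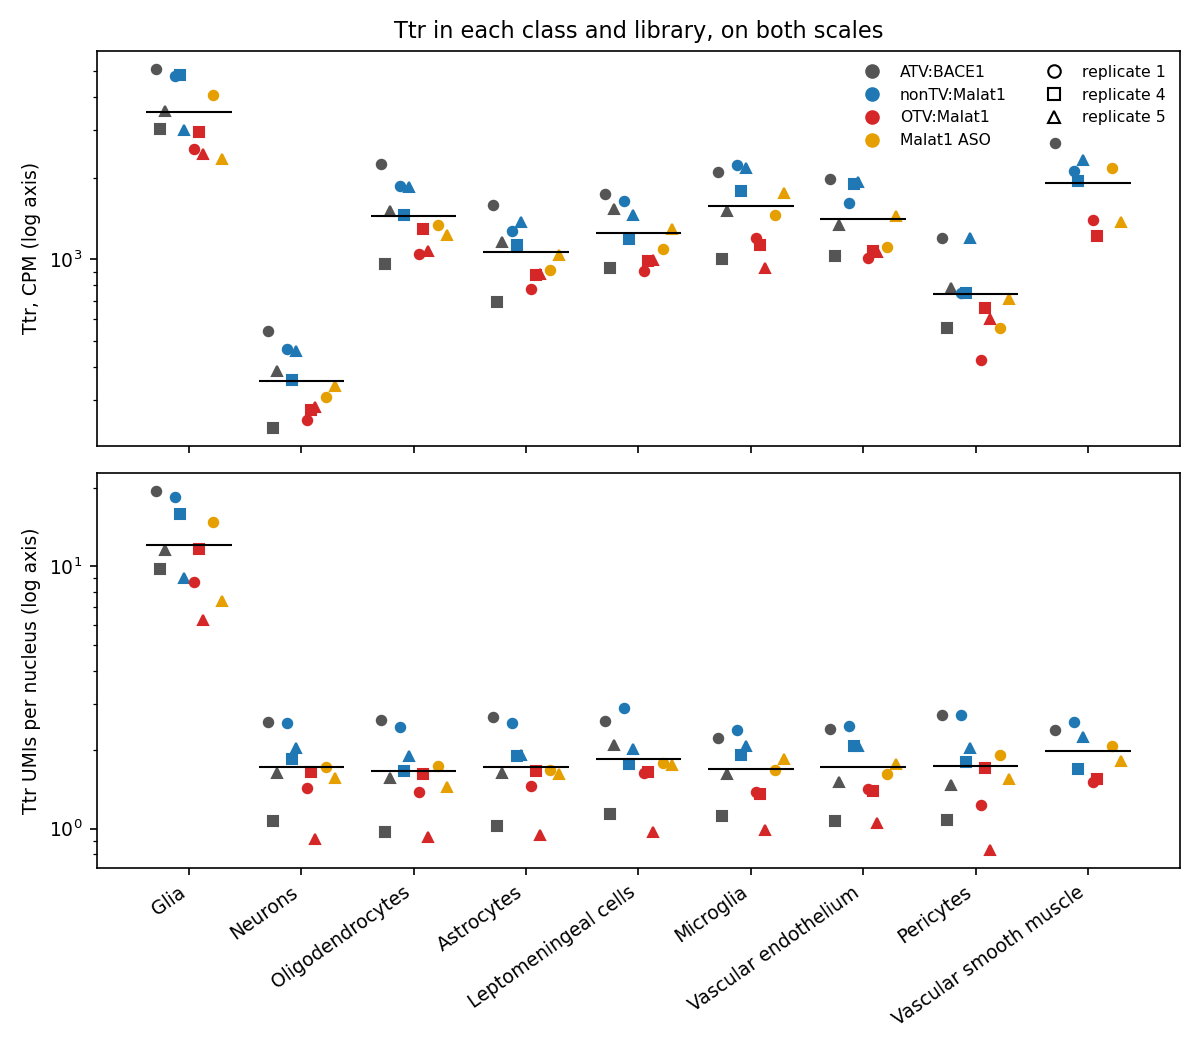
Ttr in CPM (upper panel) and in UMIs per nucleus (lower panel), both on log axes, for each class with at least 20 nuclei in more than 1 library, 1 point per library and a bar at the mean (8 libraries for vascular smooth muscle, 11 for the others). The plotted classes other than Glia spread from 355 to 1909 CPM on average but from 1.66 to 1.97 UMIs per nucleus.

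Depth within neurons showed the same contrast between scales. Neurons with fewer than 1000 UMIs held 1.59 ± 0.53 Ttr UMIs each, and neurons with 8000 or more held 2.05 ± 0.52 (n = 11 libraries). The Ttr CPM of these neurons fell from 2178 ± 763 to 192 ± 49.7. Htr2c, a gene of neurons, went from 0.0758 to 2.19 UMIs per nucleus over the same bins and from 103 to 205 CPM, and Enpp2 from 0.189 to 1.26 UMIs per nucleus. In astrocytes Ttr went from 1.48 UMIs per nucleus under 1000 UMIs to 2.46 in nuclei of 4000 to 8000 (n = 10), and from 1823 to 470 CPM. In Glia it went from 6.18 UMIs in nuclei of 1000 to 2000 UMIs to 13.8 in nuclei of 2000 to 4000 and 16.3 in nuclei of 4000 to 8000 (n = 9). The Ttr CPM of these Glia nuclei were 4047, 4874 and 2966, with no single direction over the bins. In the classes other than Glia the share of nuclei with a Ttr UMI was near that of classes not known to make Ttr, so no order of Ttr expression among them is read from their CPM. Free RNA was not measured directly, and its part in these counts was not tested.

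**Figure D4:**
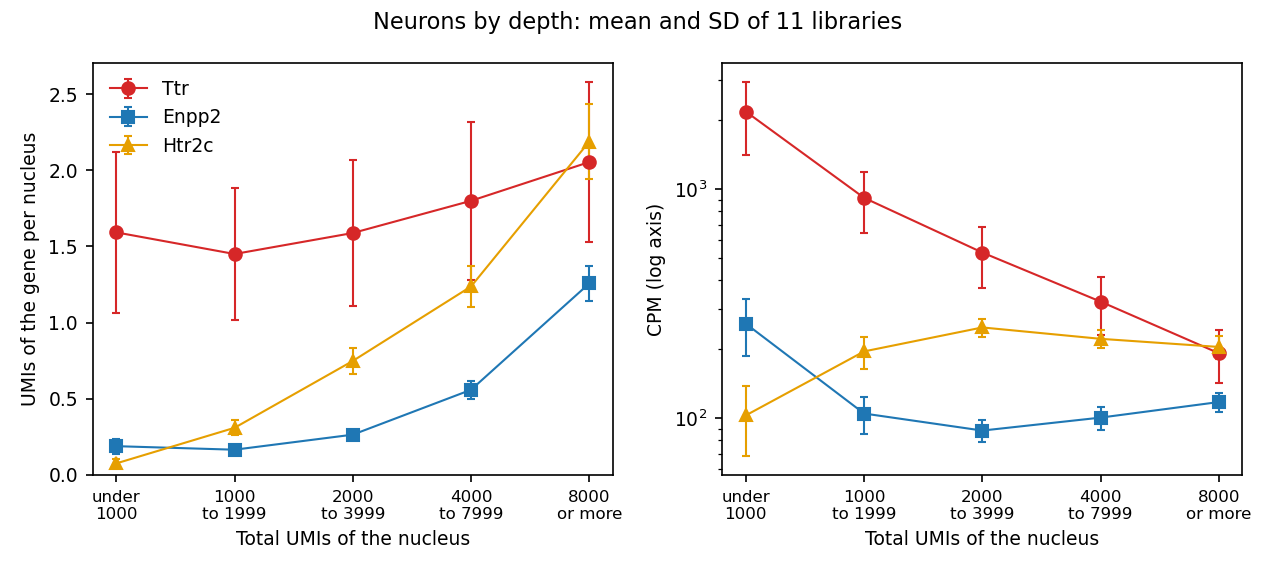
UMIs per nucleus (left) and CPM on a log axis (right) of Ttr, Enpp2 and Htr2c in neurons grouped by total UMIs, points for the mean and bars for the SD of 11 libraries. Ttr UMIs per neuron stay between 1.45 and 2.05 across the bins, whereas those of Htr2c go from 0.0758 to 2.19.

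The other genes were set against Ttr to see whether they keep 1 ratio outside Glia. In Glia there were 162 ± 39.7 Htr2c UMIs, 79.9 ± 17.5 Enpp2, 6.57 ± 1.95 Kl, 6.39 ± 1.88 Otx2, 5.60 ± 1.62 Slc4a5 and 3.75 ± 0.95 Folr1 UMIs per 100 Ttr UMIs (n = 11). In vascular endothelium there were 1.08 Htr2c, 7.86 Enpp2, 0.271 Kl, 0.110 Otx2, 0.0914 Slc4a5 and 0.407 Folr1 UMIs per 100 Ttr UMIs. Each of these is lower than in Glia, and by unequal factors. Microglia were similar for most, with 0.752 Htr2c and 0.290 Folr1 but 18.9 Enpp2. Thus in these 2 classes Ttr was accompanied by fewer UMIs of these 6 genes than in Glia. Igf2 did not follow them, with 0.281 UMIs per 100 Ttr UMIs in Glia, 0.523 in vascular endothelium and 0.331 in microglia. Outside Glia, some classes stood above the rest for 1 or 2 genes. Neurons had 66.3 Htr2c and 30.8 Enpp2 UMIs per 100 Ttr UMIs, oligodendrocytes 88.6 Enpp2, leptomeningeal cells 5.60 Kl and 4.83 Igf2, and astrocytes 1.47 Otx2.

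Over libraries, the Ttr that Glia nuclei supplied, as CPM of all UMIs of the library, was compared with the Ttr CPM of each other class. The first quantity was 17.5 CPM in OTV:Malat1 replicate 5, the lowest library, and 88.7 CPM in ATV:BACE1 replicate 1, the highest. Pearson's r was 0.69 for neurons (permutation p = 0.019, Spearman's rho 0.63, p = 0.045) and 0.76 for oligodendrocytes (permutation p = 0.0081, rho 0.78, p = 0.0068, n = 11). Over the 8 classes compared, r ran from 0.43 in pericytes to 0.76, and the lowest Benjamini-Hochberg adjusted p was 0.054 for both measures, so none passed 0.05. Without ATV:BACE1 replicate 1 and nonTV:Malat1 replicate 1, the 2 libraries farthest from the median, r fell to between 0.12 and 0.48, so the pooled relation rests on those libraries. Without called doublets r ran from 0.50 in neurons to 0.69 in vascular endothelium, with a lowest adjusted permutation p of 0.10. In that setting the 2 farthest libraries were nonTV:Malat1 replicates 1 and 4. Without them r was 0.59 in neurons to 0.83 in vascular smooth muscle. Without nonTV:Malat1 replicate 5 the adjusted p was under 0.05 in all 8 classes (r 0.80 for neurons), without Malat1 ASO replicate 5 in 6 of them (r 0.71 for neurons), and without nonTV:Malat1 replicate 4 in oligodendrocytes (r 0.81). Both quantities come from the same library.

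Within the batches the relation was closer. With both quantities centred within the replicate number, r was 0.92 for neurons (exact permutation within replicate number, adjusted p = 0.0035; rho 0.87, adjusted p = 0.0051) and 0.92 for astrocytes (adjusted p = 0.0062). The range was 0.75 in pericytes to 0.92, with adjusted p-values for r of 0.0023 to 0.042 from these exact permutations. The rho of vascular smooth muscle (0.74, n = 8) had an adjusted p of 0.062. Without the 2 libraries farthest from the median, the centred r was 0.61 to 0.92. Libraries whose Glia supplied more Ttr than others of their batch thus also had more Ttr in the other classes. Within a batch each library has a different dosing group, so this relation cannot be told apart from differences between groups. The Ttr of Glia nuclei can itself hold free RNA, and that part was not tested. Separate values per batch are not given since each holds 3 or 4 libraries.

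**Figure D5:**
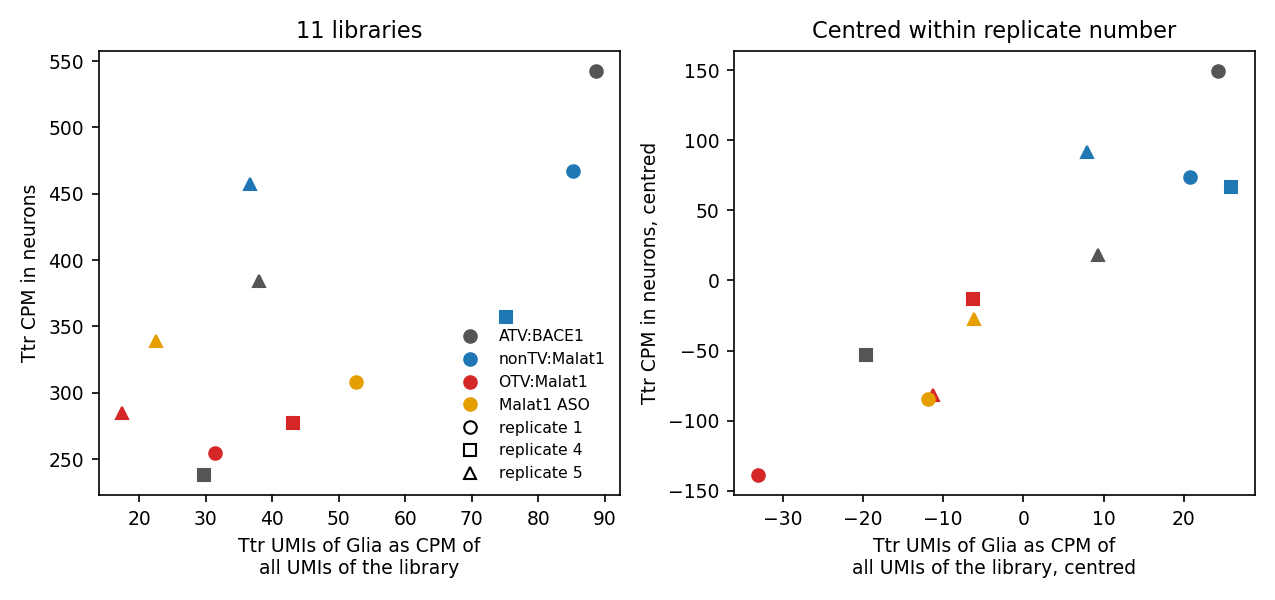
Ttr CPM in neurons against the Ttr UMIs of Glia nuclei as CPM of all UMIs of the library, as measured (left) and after subtraction of the mean of the replicate number (right), 1 point per library, colour for the group and shape for the replicate number. The points scatter on the left (r 0.69) and lie closer to a line on the right (r 0.92).

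The dosing groups were compared for the 8 genes with edgeR on counts summed per library, in a fit without a block for the replicate number. Replicate numbers pair the libraries, and the SEs and p-values of that fit do not take account of this pairing. Calls with the block are given with the alternatives, and blocked SEs of Ttr in Glia and all nuclei are not given here. In Glia 7 genes were tested, as Igf2 did not pass the filter on low counts, and none was called in any of the 5 contrasts, with 0% of 10228 genes called in each. Malat1, the targeted gene, was thus not called in Glia either. At an unadjusted p under 0.05 there was 1 of 7 in OTV:Malat1 against ATV:BACE1 and 1 of 7 in OTV:Malat1 against nonTV:Malat1, both Ttr, and 0 of 7 in the other 3 contrasts. DESeq2 gave the same 1, 1 and 0 by unadjusted p and called none. Here and below, the share of all genes at an unadjusted p under 0.05 is not given, so such counts are not read as results about the genes.

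For Ttr in Glia, OTV:Malat1 stood 0.57 lower on the log2 scale than ATV:BACE1 (SE 0.24, edgeR adjusted p = 0.90) and 0.67 lower than nonTV:Malat1 (SE 0.24, adjusted p = 1.00). The first difference was -0.38 without ATV:BACE1 replicate 1. Ttr differed by 0.10 (SE 0.24) between nonTV:Malat1 and ATV:BACE1, by -0.30 (SE 0.27) between Malat1 ASO and ATV:BACE1, and by -0.28 (SE 0.27) between OTV:Malat1 and Malat1 ASO. These 3 differences changed sign when 1 library was left out, for example to 0.05 between Malat1 ASO and ATV:BACE1 without Malat1 ASO replicate 5 and to 0.18 between OTV:Malat1 and Malat1 ASO without Malat1 ASO replicate 1. The other 6 genes lay between -0.29 and 0.22 on the log2 scale in the 5 contrasts. In OTV:Malat1 against ATV:BACE1 they ran from -0.18 for Slc4a5 to 0.06 for Otx2. In the nuclei with more choroid plexus marker UMIs alone, a selection made after seeing the data, OTV:Malat1 differed from ATV:BACE1 in Ttr by -0.32 (SE 0.23) and from nonTV:Malat1 by -0.57 (SE 0.23), and neither passed adjustment (edgeR).

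Over all nuclei the 8 genes were all tested and none was called, with 0% of 21409 genes called in each contrast. Malat1, the targeted gene, was thus not called either in this fit without a block, although its OTV:Malat1 libraries stood below all others. A gene that was not called is therefore not shown to be unchanged. At an unadjusted edgeR p under 0.05 there was 1 of 8 in OTV:Malat1 against ATV:BACE1 (Ttr) and 3 of 8 in OTV:Malat1 against nonTV:Malat1 (Ttr, Slc4a5 and Folr1), and 0 of 8 in the others, where DESeq2 gave 1, 4 and 0 and called none of the 8. These counts too stand without the share of all genes at that cut. Against ATV:BACE1, Ttr of OTV:Malat1 stood 0.54 lower (SE 0.22, edgeR adjusted p = 1.00) and 0.73 lower against nonTV:Malat1 (SE 0.22, adjusted p = 1.00). The first difference was -0.20 on the log2 scale without ATV:BACE1 replicate 1. ATV:BACE1 replicate 4, at 324 CPM, lay below the 344 to 407 CPM of the 3 OTV:Malat1 libraries, so these groups overlap over all nuclei. In sums over all nuclei, fewer cells of a type and less RNA per cell cannot be told apart, and Glia made up 0.780% to 1.63% of the nuclei in OTV:Malat1 libraries, 1.08% to 1.66% in ATV:BACE1 and 1.43% to 1.87% in nonTV:Malat1.

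The Ttr difference between OTV:Malat1 and nonTV:Malat1 was also seen outside Glia. It was -0.67 in Glia, -0.69 in neurons, -0.67 in astrocytes, -0.68 in oligodendrocytes, -0.60 in leptomeningeal cells, -0.73 in pericytes, -0.83 in vascular endothelium and -0.94 in microglia on the log2 scale. Within replicate numbers it was negative in each of the 3 pairs of libraries in all 8 of these classes. The share of all genes with the same sign in all 3 pairs was not counted, so this is a description only. Against ATV:BACE1 it was -0.53 in neurons, -0.51 in astrocytes and -0.56 in oligodendrocytes, beside the -0.57 of Glia, but in the 3 classes other than Glia the replicate numbers differed in sign. In neurons the log2 ratio of CPM was -1.09, 0.22 and -0.44 in replicates 1, 4 and 5, in astrocytes it was -1.04, 0.34 and -0.39, and in oligodendrocytes it was -1.11, 0.43 and -0.50. In Glia it was -0.98, -0.043 and -0.54. In replicate 4, OTV:Malat1 thus stood above ATV:BACE1 in those 3 other classes and near it in Glia. The part of free RNA in the difference seen in Glia was not tested. These contrasts share the OTV:Malat1 libraries, and the classes share their libraries.

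In the 8 other classes tested, none of the 8 genes was called in any contrast where it passed the filter on low counts. Not every gene could be tested in every class. Slc4a5 had no UMI in microglia, pericytes and vascular smooth muscle. Vascular smooth muscle also had too few ATV:BACE1 libraries for the contrasts against that group. The number of the 8 genes tested per class is not given here. Of all gene tests in those classes, 0.00591%, 0%, 0%, 0.00289% and 0.00433% were called in OTV:Malat1 against ATV:BACE1, nonTV:Malat1 against ATV:BACE1, Malat1 ASO against ATV:BACE1, OTV:Malat1 against nonTV:Malat1 and OTV:Malat1 against Malat1 ASO. With the replicate number as a block, Ttr in microglia was called in OTV:Malat1 against nonTV:Malat1, lower by 0.94 on the log2 scale (SE 0.18, edgeR adjusted p = 0.0035), beside 0.0274% of gene tests called. With the same block, Htr2c in leptomeningeal cells was called in OTV:Malat1 against Malat1 ASO (log2 difference -3.59, SE 0.63, edgeR adjusted p = 0.0056), beside 0.0202%. It stood at 12.9, 18.2 and 0 CPM in the OTV:Malat1 libraries and at 34.5 and 216 CPM in Malat1 ASO replicates 1 and 5, the last from 44 UMIs. ATV:BACE1 replicate 4 was also high at 149 CPM, so 2 libraries of different groups stood apart for this gene.

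The genes were also compared between replicate numbers. Over all nuclei, 6 of the 8 genes passed the edgeR test of replicate number, where 47.0% of genes were called. They were Kl, Slc4a5, Folr1, Otx2, Enpp2 and Htr2c. Against replicate 1, Otx2 was lower by 0.28 in replicate 4 and by 0.65 in replicate 5 on the log2 scale (edgeR adjusted p = 0.0019), and Enpp2 by 0.08 and 0.42 (adjusted p = 0.00022). Kl was lower by 0.24 and 0.49, Folr1 by 0.52 and 0.62 and Slc4a5 by 0.21 and 0.58. Htr2c, with its large neuronal part, differed by 0.12 and -0.15. Ttr (-0.41 and -0.32, adjusted p = 0.075) and Igf2 (-0.24 and 0.27, adjusted p = 0.13) did not pass. Glia made up 1.46% to 1.85% of nuclei in replicate 1, 1.08% to 1.87% in replicate 4 and 0.780% to 1.43% in replicate 5, and nuclei of Glia with more choroid plexus marker UMIs 0.739% to 1.05%, 0.533% to 0.817% and 0.376% to 0.662%. The last share did not overlap between replicates 1 and 5, and its part in these differences was not tested. Prlr and Kcnj13, markers used for that split, were themselves lower in Glia of replicates 4 and 5, as given below. Fewer such nuclei and less marker RNA per nucleus can thus not be told apart in this share. Without called doublets 5 of the 8 passed over all nuclei, where 44.8% of genes were called, as Kl (adjusted p = 0.064) and Folr1 (adjusted p = 0.052) no longer did and Igf2 did (adjusted p = 0.016, edgeR).

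In Glia 0 of 7 genes passed that test, with 2.04% of genes called, and 4 of 7 (Ttr, Enpp2, Otx2 and Kl) had an unadjusted edgeR p under 0.05. Without called doublets 4 of 7 passed (Ttr, Enpp2, Otx2 and Kl), where 7.79% of genes were called. With no filter on low counts 3 of 8 passed (Ttr, Enpp2 and Kl), where 1.65% were. Enpp2 differed by -0.26 and -0.59 and Ttr by -0.16 and -0.48 from replicate 1 in replicates 4 and 5. The share of Glia nuclei with more choroid plexus than ependymal marker UMIs was 49.4% to 62.7% in the 4 libraries of replicate 1. It was 34.96% to 49.5% in the 3 of replicate 4 and 36.8% to 57.1% in the 4 of replicate 5. Prlr and Kcnj13, markers of this split, were themselves lower in Glia of replicates 4 and 5. The edgeR test was repeated in the nuclei with more choroid plexus marker UMIs, a selection made after seeing the data. There Ttr differed by -0.0045 and -0.30, Enpp2 by -0.038 and -0.44, Otx2 by 0.020 and -0.18 and Kl by -0.37 and -0.28. None of the 7 genes passed, with a lowest adjusted p of 0.12 for Enpp2. The percent of all genes called in these nuclei is not given here. The part of the share of choroid plexus marker nuclei in these values was not tested further. In neurons 1 of 8, Htr2c, passed (differences 0.15 and -0.06, adjusted p = 0.034), with 48.4% of genes called, and it no longer passed without ATV:BACE1 replicate 4, ATV:BACE1 replicate 5 or nonTV:Malat1 replicate 1. Igf2 passed beside Htr2c in neurons without called doublets, where 45.8% of genes were called, and with no filter, where 38.1% were.

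Other genes of the tissue were taken from 2 lists. Of 26 genes known from choroid plexus epithelium, among them the water channel Aqp1, the potassium channel Kcnj13 and the anion exchanger Slc4a10, 25 were tested in Glia and none was called between dosing groups by edgeR. At an unadjusted p under 0.05 there were 2, 1, 1, 0 and 1 in the 5 contrasts, in the order given for the other classes. For OTV:Malat1 against ATV:BACE1 the list's median log2 difference was -0.05 and against nonTV:Malat1 it was -0.23, with medians over all genes of -0.01 and 0.00. The highest of them in Glia were Slc4a10 at 983 CPM and Col8a1 at 542 CPM, pooled over libraries. By replicate number 4 of the 25 passed in Glia. They were Kcnj13 (-1.34 and -1.003 in replicates 4 and 5 against 1), the prolactin receptor Prlr (-0.9998 and -1.23), Rdh5 (-0.60 and -0.71) and Col8a1 (-0.30 and -0.98). Kcnj13 was also called over all nuclei, but there it was higher in replicates 4 and 5, by 0.56 and 0.64 (edgeR adjusted p = 8.1e-05). That test called 2.04% of all genes in Glia. Over all nuclei 12 of 26 passed it, near the 47.0% of all genes called there, and none was called between dosing groups, with 2, 1, 2, 6 and 0 at an unadjusted edgeR p under 0.05.

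Of 11 genes that handle thyroid hormone or retinol, the cargo of Ttr, 6 were tested in Glia and none was called in any contrast or by replicate number (edgeR), with 1 of 6 at an unadjusted p under 0.05 in 1 contrast. Thrb, a thyroid hormone receptor, stood at 356 CPM in Glia, pooled over libraries. The list's median log2 difference was -0.07 between OTV:Malat1 and ATV:BACE1 and -0.18 between OTV:Malat1 and nonTV:Malat1. Over all nuclei 10 were tested, none was called between dosing groups by edgeR (0 also at an unadjusted p under 0.05), and 5 passed by replicate number, among them Slco1c1, Dio2, Thrb and Rbp4, which is near the 47.0% of all genes called. Dio2, which activates thyroid hormone, was lower by 0.28 in replicate 4 and by 0.84 in replicate 5 than in replicate 1.

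Genes whose pattern was most like each of the 8 were ranked by Pearson's r of log2(CPM + 1) over 97 sums of a class in a library, among 11982 genes. Sums of 1 library share its depth, and r is given as a description. For Ttr the nearest were Dbi (r 0.76), Ecrg4 (0.73), Clu (0.67), Hsp90aa1 (0.67) and Itprid2 (0.65). Dbi and Ecrg4 had 1.25 and 0.291 UMIs per nucleus in Glia, and outside Glia 0.336 to 0.661 and 0.032 to 0.058. The nearest gene was Sh3d19 for Enpp2 (0.82), Car12 for Htr2c (0.83), Otx2os1 for Otx2 (0.90), Wdr86 for Kl (0.80), Gm534 for Folr1 (0.74), Oca2 for Slc4a5 (0.92) and Slc6a12 for Igf2 (0.79). Otx2os1, the overlapping gene of the other strand, held 8446 UMIs against 2056 for Otx2. Oca2 had 0.531 UMIs per nucleus in Glia and at most 0.0063 in any other class, much as Slc4a5.

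In neurons alone, over 11 libraries and among 12405 genes, the genes most like Ttr were Ecrg4 (r 0.90), Trim26 (0.90), Pms2 (0.89), Rab9b (0.88) and Fgfr3 (0.88). They are the highest of many genes over few libraries, so a high r follows in part from the ranking, and r is a description only. Ecrg4 is itself a gene of choroid plexus epithelium, and its level in neurons ran from 4.94 to 13.9 CPM. Pooled over libraries, Pms2 (30.5 CPM) and Rab9b (6.27 CPM) were higher in neurons than in any other class, and Ecrg4, Trim26 and Fgfr3 were not. Ttr in neurons ran from 238 CPM in ATV:BACE1 replicate 4 to 543 CPM in ATV:BACE1 replicate 1, and Fgfr3, a gene of astrocytes, from 4.44 to 7.60 CPM.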

How the data were processed

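The authors deposited a matrix of raw UMI counts, whole numbers in sparse form per the file headers. The submitters' processing notes name Cell Ranger 5.0.0, Seurat 4 and mm10 without saying what each was used for. The deposited metadata give, per nucleus, the total count, the percent of mitochondrial UMIs, a class and its prediction score as a fraction, a cluster, a doublet call and a batch. The count sums equalled the deposited totals in 110304 nuclei, whose lowest total was 499 UMIs, so nuclei had been filtered before deposition by the authors in a way not given in the sources used here. Symbols were matched to GENCODE M21 and RefSeq GRCm38.p6 for positions only.

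Counts were summed per library and deposited class (at least 20 nuclei), called doublets included, and tested with edgeR 4.0.16 in R 4.3.3 (TMM, filterByExpr by group, glmQLFit and glmQLFTest, all 4 groups in 1 fit without a block, Benjamini-Hochberg adjustment over all genes of the fit, threshold 0.05). A contrast needed 2 libraries per group. The fit was run on simulated counts with 200 genes changed 4-fold, the same dispersion for every gene and no replicate number effect. It recovered 83.5% of them with 9 false calls in Glia, and 96.5% with 6 false calls in all nuclei. The real libraries differ by replicate number, so this outcome does not give the power in these data. Replicate number was tested in a fit of group and number. Alternatives were DESeq2 1.42.0, no filter, a replicate block, removal of doublets, prediction score of at least 0.5 and each library left out. Over 15 pairs, libraries of the same replicate number had correlated deviations from their group means (r 0.34 to 0.70), and the deposited batch marks the same numbers, so the numbers pair the libraries. Relations over libraries used 100000 permutations. Shares of nuclei were thinned to 1000 UMIs by the exact expected share. Intervals, limits from 0 counts (3 counts) and depth cover counting error only. The ranges given with shares of Glia are over libraries. Sums and plots were made in Python 3.11.15 (pandas 2.3.3, scipy 1.17.1, numpy 2.4.6, matplotlib 3.10.9).

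The members, the gene and marker lists and the tests were chosen with earlier results of these data known. The named genes are the 8 members, the 5 genes most like Ttr over class sums (mean of at least 10 CPM) and in neurons (at least 5 CPM), the nearest gene of each other member, the 2 members of each list highest in Glia and list members called. Some genes that this rule names are not reported here.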

Additional observations from a re-analysis of the deposited data

How the results depend on the processing

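No treatment contrast called a member in Glia or in all nuclei under any alternative, and the direction of Ttr between OTV:Malat1 and each of ATV:BACE1 and nonTV:Malat1 was kept in all of them. In Glia and all nuclei, the share of all genes called between dosing groups under the alternatives is not given here. A count of 0 there thus does not show that these genes were unchanged. With the replicate block, 0 members were called in each contrast of Glia and of all nuclei. In the other classes 1 was called in OTV:Malat1 against nonTV:Malat1 and 1 in OTV:Malat1 against Malat1 ASO, beside 0.0274% and 0.0202% of gene tests. The block changed no other call. With no filter 1 was called in the last contrast too, but the share of all gene tests called in that setting is not given here. The Ttr log2 difference in Glia between nonTV:Malat1 and ATV:BACE1 was -0.087 without called doublets. With 1 library left out it was -0.030 to 0.30, between Malat1 ASO and ATV:BACE1 -0.76 to 0.049, and between OTV:Malat1 and Malat1 ASO -0.63 to 0.18. In all nuclei the first 2 were -0.027 to 0.53 and -0.44 to 0.12. A Malat1 ASO library left alone is assumed to vary like the other groups.

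By replicate number, 3 members in Glia and 2 in neurons passed with no filter, where 1.65% and 38.1% of genes were called. Without called doublets 4 and 2 passed, where 7.79% and 45.8% of genes were called. With 1 library left out the counts were 0 to 1 in Glia, 0 to 3 in neurons and 5 to 7 in all nuclei, with 0.533% to 2.68%, 37.5% to 44.9% and 34.9% to 43.3% of genes called. The relation of Ttr over libraries, centred within replicate number, had r 0.92 in astrocytes, 0.91 in leptomeningeal cells, 0.84 in microglia, 0.92 in neurons, 0.89 in oligodendrocytes, 0.75 in pericytes, 0.87 in vascular endothelium and 0.82 in vascular smooth muscle. With 1 library left out the uncentred r was astrocytes 0.47 to 0.77, leptomeningeal cells 0.46 to 0.70, microglia 0.56 to 0.81, neurons 0.53 to 0.80, oligodendrocytes 0.63 to 0.86, pericytes 0.15 to 0.66, vascular endothelium 0.52 to 0.80, vascular smooth muscle 0.51 to 0.84.

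Averaged over each nucleus's own share, Ttr in leptomeningeal cells was 1570 CPM, in neurons 499.6 and in pericytes 1083, and in nuclei of at least 1000 UMIs it was 1040 in microglia and 1189.9 in vascular smooth muscle. Thinned to 500 UMIs, the percent of Glia nuclei with a UMI was 63.2 for Ttr, 11.6 for Otx2, 11.1 for Kl, 6.82 for Folr1 and 9.94 for Slc4a5. The cause of these changes was not tested, except that fewer UMIs per nucleus lower a share. Depth limits the sparse genes most, Igf2 with 41 UMIs in Glia first.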
